A study of Mus musculus with 6 samples.

Results

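Metallothioneins are small cysteine-rich proteins that bind zinc and copper, and the genes described here are Mt1, Mt2 and Mt3 together with Mtf1, the transcription factor that drives metallothionein genes when free zinc rises. These 4 genes, of 19057 genes with a single symbol on the array, were read by 6 probes: 1 each for Mt1, Mt2 and Mt3 and 3 for Mtf1. They were chosen by gene family, with their differences between mutant and control nerves on these same arrays already known, and every probe annotated to 1 of them was taken. Their differences are therefore given as a description, with standard errors, and no p-value is given for them.

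The arrays held total RNA of sciatic nerve from mice of both sexes at postnatal day 14, when Schwann cells, the glia of peripheral nerve, wrap axons in myelin. There were 3 mutant arrays, labelled P0 Cre Dicer F or N, and 3 arrays of control littermates whose alleles the labels do not list. Cre is driven by the promoter of the myelin protein gene P0, which is active in Schwann cells, and Dicer cuts microRNA precursors; the meaning of F or N was not found in the labels. Each array also holds RNA of the fibroblasts, perineurial, vascular and immune cells of the nerve. The labels do not say whether nerves were pooled or which arrays come from separate animals, so p-values measure only the spread between these arrays, which may be technical.

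Mt1 and Mt2 are made by most tissues. Their promoters carry metal response elements bound by Mtf1, and they are induced by zinc, cadmium, glucocorticoids, interleukin 6 and oxidative stress. Mt3, first known as a growth inhibitory factor of brain, is largely a gene of the nervous system and responds poorly to metals. Mt4 is a metallothionein of stratified epithelia. Zinc exporters of the Slc30a family and importers of the Slc39a family set the free zinc that Mtf1 senses.

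The windows below run from 250 bases before to 50 bases after each gene's annotated start, from RefSeq for GRCm38.p6, all on the plus strand of the chromosome: chr8:94178839-94179138 for Mt1, chr8:94172368-94172667 for Mt2 and chr8:94152357-94152656 for Mt3. They are printed because these 3 genes lay lower in mutant nerves and the family's best known regulatory element is a promoter motif. Capitals mark the core of the metal response element, searched as TGCACNC and TGCGCNC on both strands.

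Mt1: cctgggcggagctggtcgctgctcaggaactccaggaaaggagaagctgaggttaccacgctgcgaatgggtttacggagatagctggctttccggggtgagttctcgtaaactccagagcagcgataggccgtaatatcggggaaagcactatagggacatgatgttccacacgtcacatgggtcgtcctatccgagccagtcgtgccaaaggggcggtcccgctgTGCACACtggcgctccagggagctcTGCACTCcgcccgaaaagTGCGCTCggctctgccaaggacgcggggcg
Mt2: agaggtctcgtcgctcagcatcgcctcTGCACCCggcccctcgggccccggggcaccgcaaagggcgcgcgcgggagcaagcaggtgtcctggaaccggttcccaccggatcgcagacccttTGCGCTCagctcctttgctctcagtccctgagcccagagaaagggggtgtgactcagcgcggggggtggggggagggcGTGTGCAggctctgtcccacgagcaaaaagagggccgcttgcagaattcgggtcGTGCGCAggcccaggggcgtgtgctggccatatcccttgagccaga
Mt3: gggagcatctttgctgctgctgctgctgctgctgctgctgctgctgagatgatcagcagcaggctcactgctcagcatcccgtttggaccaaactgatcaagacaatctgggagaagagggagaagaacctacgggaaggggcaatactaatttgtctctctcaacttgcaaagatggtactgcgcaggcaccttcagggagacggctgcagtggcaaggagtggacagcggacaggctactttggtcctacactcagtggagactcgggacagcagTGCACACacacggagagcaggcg

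The Mt1 window held 3 metal response cores, at -23, 3 and 21 from the annotated start, where each number is the first base of the match and the start is base 1. The Mt2 window held 4, at -223, -128, -50 and 5, the last pair on the minus strand. The Mt3 window held 1, at 28. Of all 32851 promoter windows of the same length, 25.7% held at least 1 core, 1.97% at least 3 and 0.517% at least 4. Neither form was found in the Mtf1 window, and the Mt4 window held 1. The antioxidant response core, TGACNNNGC, occurred once in the Mt2 window, at -79, and in 12.4% of all windows. The Sp1 box, GGGCGG, occurred 3 times in the Mt1 window, where the last overlaps a metal response core by 1 base, once in the Mtf1 window and in 35.7% of all windows. The E-box of Usf factors, CACGTG, was in none of the members' windows and in 7.15% of all windows. These matches describe the letters of 300 bases and do not show binding, and elements outside the windows were not searched. Whether transcription in nerve begins at the annotated starts was not tested. The positions therefore do not place a match inside or outside the transcript.

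**Figure D1:**
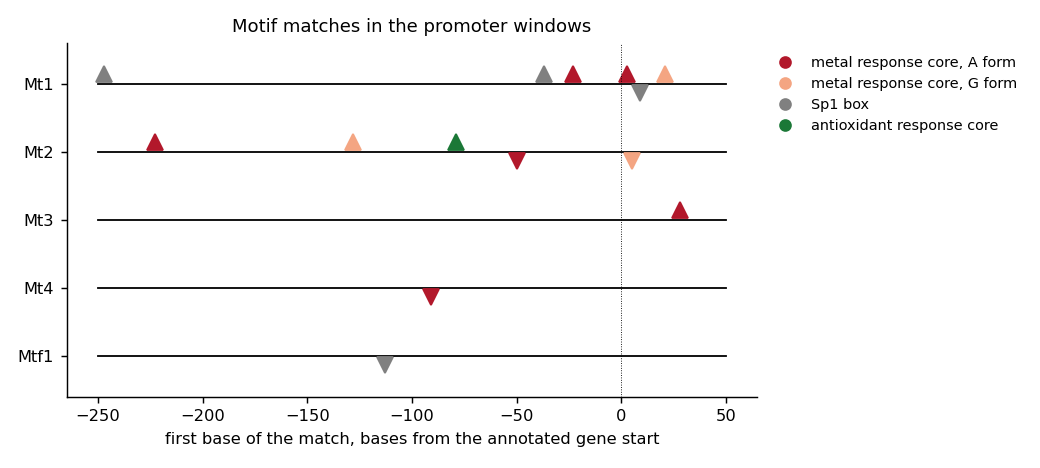
Motif matches in the promoter windows of Mt1, Mt2, Mt3, Mt4 and Mtf1. The horizontal axis is the distance in bases of the first base of each match from the annotated start, upward triangles are matches on the plus strand and downward ones on the minus strand. The metal response core occurs 3 times for Mt1, 4 times for Mt2, once each for Mt3 and Mt4 and not for Mtf1.

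All 6 probes were among the 18420 brightest of 45281 probes, which were the ones tested, and the Mt4 probe was not. The normalized signals, whose scale resembles log2, run from 7.96 to 15.91 with a median of 8.24 on every array. A probe was called at a limma adjusted p under 0.05. The 6 arrays correlated at 0.973 to 0.993 among mutants, 0.992 to 0.995 among controls and 0.912 to 0.942 between groups. The first principal component, with 80.7% of the variance, separated the groups, and on the second, with 11.7%, mutant replicate 1 stood at 22.51, against -8.74 and -18.33 for the other mutant arrays. The Schwann lineage marker Sox10 read 14.09, 14.00 and 13.85 in mutant nerves and 13.97, 13.92 and 13.94 in control nerves. Another Schwann cell marker, S100b, read 8.64, 8.86 and 9.22 in mutants and 9.96, 9.98 and 10.37 in controls. S100b was called lower (limma adjusted p = 0.00236), while Sox10 and the dim marker Erbb3 were not called.

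The metallothionein probes were lower in mutant nerves, Mt3 most. Every mutant array lay below every control array for 3 of the 6 probes, those of Mt1, Mt2 and Mt3, a pattern seen in 23.8% of all tested probes. For 2 Mtf1 probes every mutant array lay above every control array, as for 28.3% of tested probes, and for 1 Mtf1 probe the groups overlapped. In the fit over all probes 4 of the 6 passed the threshold, 3 of them lower, where 35.8% of all tested probes were called and 15.9% were called lower. Nothing is read from these counts, since the choice of the genes rested on the same values. Of the 4, Mt3 passed in all 11 alternatives that tested it, Mt1 in 6 of 11, Mt2 in 8 of 10 and the dimmest Mtf1 probe in 3 of 10. Mt1 did not pass when any single control array was left out. The dimmest Mtf1 probe did not pass when any single array was left out, and also not with the replicate number as a block. The alternatives reuse the arrays whose values were known when the genes were chosen, so passing them adds no support. The median difference over all tested probes was 0.01. In a whole nerve, fewer cells of a type and less RNA per cell cannot be told apart.

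Mt3 read 8.16, 8.30 and 8.66 in mutant nerves and 10.57, 10.66 and 11.01 in control nerves. All mutant values were close to the array median, and the gap between the highest mutant and the lowest control value was 1.91. Mt3 averaged 8.37 ± 0.259 in mutants and 10.75 ± 0.234 in controls (SD, n = 3 each), a difference of -2.37 (SE 0.162). Of the 18420 tested probes, 61 had a more negative difference. The mutant mean was only just above 8.34, the lowest mean among the tested probes. No detection calls were used here, so how much of the mutant signal is above background is not known, and a difference that ends at the dim end of the scale may be too small. The difference ran from -2.52 to -2.24 when single arrays were left out.

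Mt1 was among the brightest probes on the array, 134th of 45281 by mean signal. It read 12.88, 13.78 and 14.35 in mutant nerves and 14.82, 15.00 and 15.01 in control nerves. The control arrays lay within a narrow band while the mutant arrays spread widely, and the groups were 0.47 apart at their nearest. The means were 13.67 ± 0.742 in mutants and 14.94 ± 0.109 in controls (SD, n = 3 each), a difference of -1.27 (SE 0.339). Without mutant replicate 1, the lowest array, the difference was -0.88 (SE 0.156), and without mutant replicate 3 it was -1.61 (SE 0.256).

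Mt2 was read by a dim probe, with 8.32, 8.31 and 8.62 in mutant nerves and 8.88, 8.99 and 9.50 in control nerves. Here the control arrays were the more spread, with control replicate 3 highest, and the groups were 0.26 apart at their nearest. The means were 8.42 ± 0.174 in mutants and 9.12 ± 0.331 in controls (SD, n = 3 each), a difference of -0.71 (SE 0.173). It was -0.52 (SE 0.114) without control replicate 3. Signals of different probes cannot be set against each other, so the dim Mt2 signal does not say that Mt2 was less abundant than Mt1. Mt4 had 8.29, 8.27 and 8.22 in mutant nerves and 8.28, 8.35 and 8.39 in control nerves, overlapping values near the array median.

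**Figure D2:**
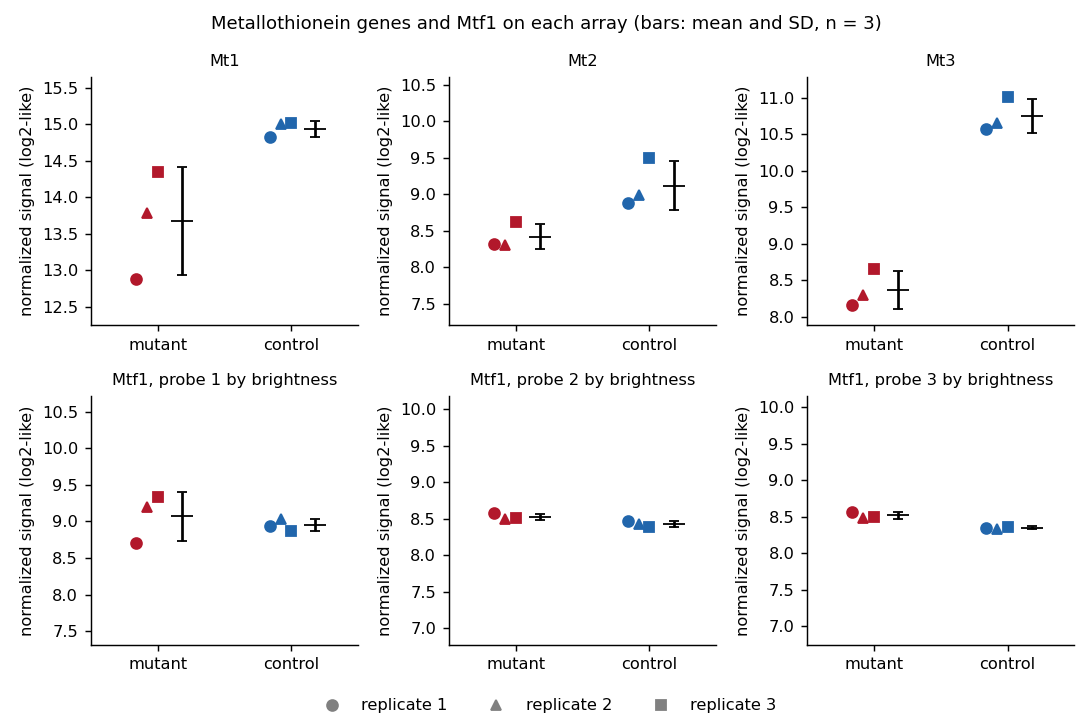
Normalized signal (log2-like scale) of the 6 member probes on each array, mutant on the left and control on the right of each panel, with the symbol giving the replicate number and the bar the mean and SD of 3 arrays. Each panel spans the same range of signal around its own middle. The groups separate for Mt1, Mt2 and Mt3, by 1.91 for Mt3 and by 0.47 and 0.26 for the others, while the Mtf1 probes differ little.

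The 3 Mtf1 probes differed little between the groups. The brightest, designed on another transcript sequence than the other probes, read 8.70, 9.20 and 9.33 in mutant nerves and 8.94, 9.04 and 8.87 in control nerves. Mutant replicate 1 lay below all controls and the other mutant arrays above them, and the difference of 0.12 was smaller than its SE of 0.160. It was 0.31 (SE 0.071) without mutant replicate 1, 0.00 without mutant replicate 3, 0.06 without mutant replicate 2 and 0.08 without control replicate 3. The second probe had 8.57, 8.49 and 8.51 in mutants and 8.46, 8.42 and 8.38 in controls, a difference of 0.10 (SE 0.051). The third and dimmest had 8.57, 8.48 and 8.49 in mutants and 8.35, 8.33 and 8.36 in controls, a difference of 0.17 (SE 0.051). Both dim probes were separated between the groups, by 0.02 and 0.12.

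Relative to the control mean, mutant replicates 1, 2 and 3 stood at -2.07, -1.16 and -0.59 for Mt1, at -0.80, -0.81 and -0.51 for Mt2 and at -2.59, -2.44 and -2.09 for Mt3. Mutant replicate 3 was the nearest to the controls for all 3 genes, and control replicate 3 was the highest control array for all 3. The profile of each gene over the 6 arrays, centred on its own mean, was compared with those of the other 10272 tested genes by the mean absolute gap. Seen from Mt1, Mt2 ranked 371 among them with a gap of 0.355 and Mt3 ranked 2000 with 0.559. Seen from Mt2, Mt1 ranked 4612 and Mt3 9920, and seen from Mt3, Mt1 ranked 188 and Mt2 596. The gap of a pair is the same from both sides, and its rank is not.

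The genes nearest to Mt1 were Tmem256 (gap 0.054), 1810037I17Rik (0.066), Fmc1 (0.075), Ndufa5 (0.076) and Ndufa13 (0.077). Ndufa5 and Ndufa13 encode subunits of complex I of the respiratory chain, and Fmc1 an assembly factor of ATP synthase. Ndufa13, for example, read 12.51, 13.23 and 13.85 in mutant nerves and 14.34, 14.30 and 14.46 in control nerves. Its mutant arrays stood in the same order as those of Mt1, a likeness that the measure selects for. Because of these neighbours, genes of the respiratory chain and ATP synthase were taken by symbol, after the values had been seen. Over 70 such genes the median deviation from the control mean was -1.19, -0.39 and -0.25 on mutant replicates 1, 2 and 3 and lay between -0.03 and 0.06 on the control arrays. Of the 70, 20 were called lower and 1 higher, where 17.6% of all tested genes were called lower and 22.0% higher. Over 55 cytosolic ribosomal protein genes it was -0.69, -0.16 and 0.02 on the mutant arrays, and 2 were called lower. Over all 10273 tested genes it was 0.01 on each mutant array. These deviations move with the Mt1 values on the mutant arrays, and their part in the Mt1 difference was not tested.

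The genes nearest to Mt3 were Il16 (gap 0.091), Egr2 (0.101), Sbspon (0.103), Slc44a1 (0.112) and Auts2 (0.12), a search added after the Mt3 values were seen. Egr2 is the transcription factor that drives myelin genes in Schwann cells, Slc44a1 a choline transporter and Il16 a cytokine. Slc44a1 read 10.44, 10.40 and 10.50 in mutant nerves and 12.79, 12.80 and 13.03 in control nerves. Their differences, between -2.45 (Egr2) and -2.21 (Auts2), are like that of Mt3 because the measure selects for it. The genes nearest to Mt2 were D630003M21Rik (gap 0.095), Arhgap22 (0.098), Isg15 (0.101), Ly6g6d (0.102) and Lrrc57 (0.103). Isg15, a ubiquitin-like protein induced by interferon, read 8.41, 8.59 and 8.63 in mutants and 8.80, 8.92 and 9.47 in controls, with control replicate 3 highest as for Mt2.

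**Figure D3:**
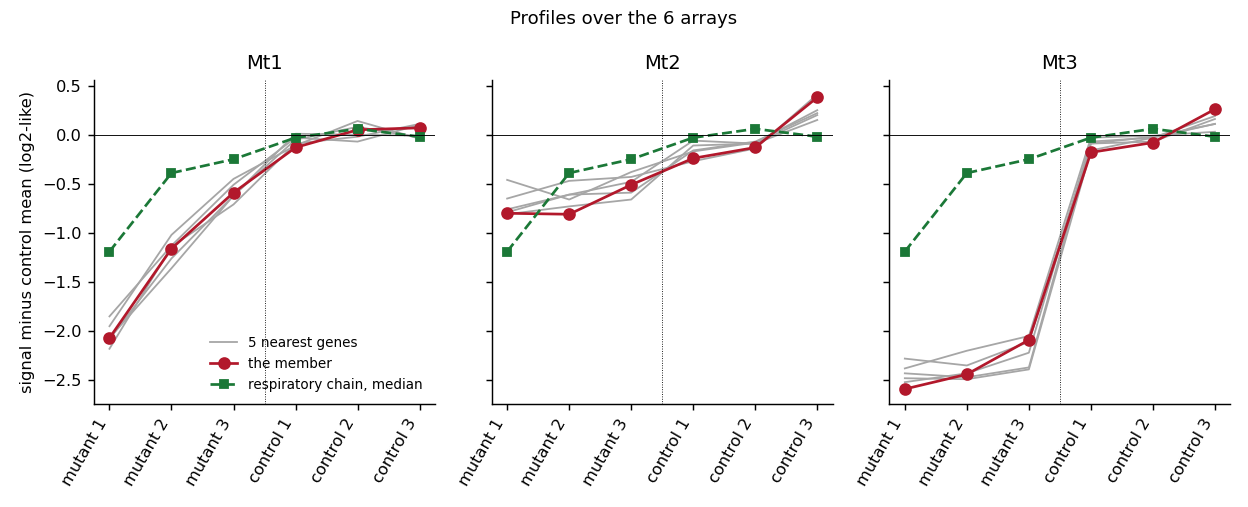
Signal of Mt1, Mt2 and Mt3 on each array minus the mean of the 3 control arrays (log2-like scale), with the 5 nearest genes of each in grey and the median of 70 respiratory chain and ATP synthase genes dashed. The lines only join the arrays for reading. Mt1 is lowest on mutant replicate 1 (-2.07) like its nearest genes, which were selected for likeness to it. Mt3 lies at -2.59 to -2.09 on all 3 mutant arrays.

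**Figure D4:**
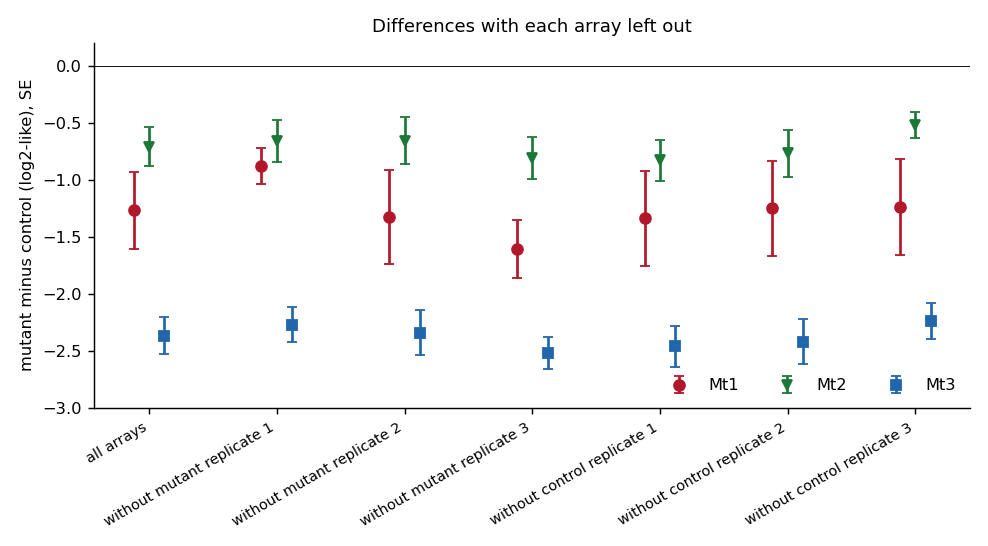
Difference of mutant minus control for Mt1, Mt2 and Mt3 with all arrays and with each array left out, with bars of 1 SE. Mt3 stays between -2.52 and -2.24, Mt1 between -1.61 and -0.88 and Mt2 between -0.83 and -0.52.

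In the RefSeq order of GRCm38.p6 the 4 metallothionein genes follow each other on chromosome 8 as Mt4, Mt3, Mt2 and Mt1. Of the 5 protein-coding genes on each side, 9 were read and 8 were tested. Of these 8, 3 were called higher and 1 lower in mutants, where 22.0% of all tested genes were called higher and 17.6% lower. Next to Mt4, Bbs2, a ciliary protein gene, averaged 9.44 in mutants and 9.95 in controls (-0.51, SE 0.063, limma adjusted p = 0.00125). Next to Mt1, Nup93, a nuclear pore gene, averaged 11.00 in mutants and 10.42 in controls (0.58, SE 0.052, adjusted p = 2.97e-04). Cpne2, the fifth gene after Mt1, rose by 1.10 (SE 0.059, adjusted p = 3.76e-05). The stress-induced gene Herpud1, also on the Mt1 side, had 12.48 in mutants and 12.55 in controls and was not called. The 8 tested neighbours were taken by position alone.

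Genes that handle zinc were counted next, by the brightest tested probe of each gene. Their counts stand against the 22.0% called higher and 17.6% called lower among all 10273 genes, whose median difference was 0.01. The same shares stand beside every list and marker count that follows. Of 7 tested zinc exporters, 1 rose, 1 fell and 5 were not called, with a median difference of 0.02. Slc30a7 was not called by its brightest probe (0.18), while a dimmer probe was called at 0.27. The exporter Slc30a1, itself a known target of Mtf1, averaged 9.01 ± 0.015 in mutant nerves and 8.99 ± 0.101 in control nerves (SD, n = 3 each), a difference that was not called (0.02, SE 0.064, limma adjusted p = 0.798). Slc30a5, which loads zinc into the secretory pathway, rose by 0.43 (SE 0.138, adjusted p = 0.0497) and Slc30a9 fell by 0.21 (SE 0.059, adjusted p = 0.0319). A second Slc30a5 probe, at 0.42, was not called. Neither call held: both were lost without mutant replicate 2 and without any single control array, that of Slc30a5 also with all probes tested and that of Slc30a9 also without mutant replicate 1 (adjusted p over all alternatives 0.0133 to 0.139 and 0.0121 to 0.0969).

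Of 10 tested zinc importers, 3 rose, 3 fell and 4 were not called, with a median of -0.10. Slc39a6, a plasma membrane importer, rose most, with 11.58, 11.12 and 11.07 in mutant nerves and 10.32, 10.43 and 10.48 in control nerves (0.85, SE 0.138, limma adjusted p = 0.00387). Slc39a4, the intestinal zinc importer, was dim and averaged 8.24 in mutants and 8.57 in controls, a fall of 0.32 (SE 0.053, adjusted p = 0.00388). Slc39a7 and Slc39a13, which release zinc from the endoplasmic reticulum and Golgi, rose by 0.29 and 0.28 (adjusted p = 0.0446 and 0.0467). Dimmer probes of both were not called, at 0.21 and 0.06 for Slc39a7 and 0.01 for Slc39a13. Both calls were lost without mutant replicate 2, without any single control array, with an intensity trend and with all probes tested, and that of Slc39a13 also without mutant replicate 3, with the replicate block (0.0796), under the stricter filter and with the mean of its probes (adjusted p over all alternatives 0.0239 to 0.135 and 0.0273 to 0.159). Leaving out single arrays gave 1 to 3 importers higher and 1 to 3 lower.

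Of 13 tested genes of copper handling, 3 rose, 1 fell and 9 were not called, with a median of 0.14. The shares over all tested genes were 22.0% higher and 17.6% lower. Among the 9, Atox1, Ccs and Sod1 stood at -0.69, -0.50 and -0.52 by their brightest probes, with mutant replicate 1 lowest for each. Without that array 3 copper genes were called lower. Cp, or ceruloplasmin, the copper-carrying ferroxidase, read 13.27, 12.70 and 12.50 in mutants and 11.60, 11.47 and 11.55 in controls (1.28, SE 0.186, limma adjusted p = 0.00239). A second Cp probe rose by 0.83, and 2 dim ones were not called (0.49 and 0.20). The copper pump gene Atp7a rose by 0.44 (adjusted p = 0.017) and Slc31a2 by 0.23 (0.0287). The Atp7a call was lost without control replicate 1 or 3 (0.00662 to 0.0676 over all alternatives), and that of Slc31a2 with the replicate block (0.0662) and when mutant replicate 2, control replicate 1 or control replicate 2 was left out (0.0232 to 0.103 over all alternatives). Cox17, a copper chaperone of cytochrome oxidase, read 10.14, 11.14 and 11.42 in mutants and 12.05, 11.89 and 11.97 in controls (-1.07, SE 0.308, adjusted p = 0.035). Mutant replicate 1 was the lowest array for Cox17 as for Mt1. Without it the fall was 0.69, and the call was lost without mutant replicate 2, without any single control array and with all probes tested (adjusted p 0.00118 to 0.106 over all alternatives).

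Of 12 tested genes of iron handling, 2 rose, 1 fell and 9 were not called, with a median of -0.02. The shares over all tested genes were 22.0% higher and 17.6% lower. Tfrc, Fth1 and Slc11a2 were not called by their brightest probes (-0.58, -0.11 and -0.03). A dimmer probe of each was called, at -0.51, -0.35 and 0.17. Trf, or transferrin, which carries iron and is made by myelinating glia, rose, at 12.08, 11.97 and 11.90 in mutants and 10.73, 10.76 and 10.95 in controls (1.17, SE 0.080, limma adjusted p = 9.66e-05). Ireb2, an iron-sensing regulator of messenger RNA, rose by 0.39 (adjusted p = 0.0445), while a second probe at 0.23 was not called. Slc25a37, which imports iron into mitochondria, fell by 0.22 (adjusted p = 0.0333). Both calls were lost without mutant replicate 2 and without any single control array. That of Ireb2 was also lost with all probes tested (0.031 to 0.14 over all alternatives) and that of Slc25a37 also without mutant replicate 3 and with the replicate block (0.0764, and 0.0167 to 0.112 over all alternatives).

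Besides the metallothioneins, 5 genes reported to depend on Mtf1 were tested, of which 0 rose, 2 fell and 3 were not called, with a median of -0.29. The shares over all tested genes were 22.0% higher and 17.6% lower. Neither the count nor the median considers whether Mtf1 raises or lowers each gene, so they do not measure Mtf1 activity. Pgf, too dim to be among the 5, was called lower with all probes tested (-0.16, limma adjusted p = 0.0205). Ndrg1, a gene of stress and hypoxia that Schwann cells need for myelin, read 13.45, 13.21 and 13.02 in mutant nerves and 14.19, 14.06 and 14.36 in control nerves (-0.98, SE 0.127, limma adjusted p = 0.00148), and a second probe fell by 1.04. Csrp1, a LIM domain protein, fell by 0.37 (adjusted p = 0.0301). That call was lost with the replicate block (0.052), which leaves 1 gene lower, without mutant replicate 2, control replicate 1 or control replicate 2, and with all probes tested (0.0268 to 0.102 over all alternatives).

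Of 17 tested genes of the glucocorticoid response, 7 fell, 1 rose and 9 were not called, with a median of -0.27. Among all tested genes 17.6% were called lower and 22.0% higher. Leaving out single arrays gave 6 to 8 lower and 0 to 2 higher. Cdkn1a, the cell cycle inhibitor p21, fell by 2.13 (SE 0.148, limma adjusted p = 1.05e-04), as did 2 further probes, at -1.88 and -1.69. Sgk1, a kinase induced by corticosteroids, read 11.26, 11.26 and 11.30 in mutants and 12.78, 12.93 and 13.29 in controls (-1.73, SE 0.127, adjusted p = 1.31e-04). The sulfotransferase gene Sult1a1 read 10.74, 11.08 and 11.05 in mutants and 12.70, 12.61 and 12.72 in controls (-1.72, SE 0.099, adjusted p = 5e-05). Ddit4, a brake on mTOR, was the member that rose, by 0.75 (adjusted p = 0.0198), a call lost without mutant replicate 2, control replicate 1 or control replicate 2 and with all probes tested (3.85e-04 to 0.0749 over all alternatives). The receptor gene Nr3c1, with 8.62, 8.55 and 8.43 in mutants and 8.66, 8.43 and 8.44 in controls, was not called. Fkbp5, Per1, Zbtb16 and Dusp1 were also among the 9 not called, at 0.10, -0.18, -0.07 and 0.17.

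Of 10 tested genes of Stat3 and the acute phase response, 4 rose, 0 fell and 6 were not called, with a median of 0.36. Among all tested genes 22.0% were called higher and 17.6% lower. The list counts leave out Lcn2, an acute phase gene too dim to be among the tested probes. It read 8.13, 8.14 and 8.15 in mutants and 8.37, 8.38 and 8.36 in controls. With all probes tested it was called lower (-0.23, limma adjusted p = 8.75e-04). Cebpb, a transcription factor of the acute phase, rose by 0.68 (SE 0.116, limma adjusted p = 0.00461) and Osmr, the oncostatin M receptor, by 0.67 (SE 0.078, adjusted p = 9.67e-04). Socs3, a feedback inhibitor of Stat3, read 10.07, 10.17 and 10.08 in mutants and 9.69, 9.72 and 9.49 in controls (0.47, SE 0.076, adjusted p = 0.0037). Stat3 itself rose by 0.47 (adjusted p = 0.024), with its other probes at 0.19, not called, and 0.28, called. The Stat3 call was lost without mutant replicate 3 or control replicate 1 and with all probes tested (0.00889 to 0.063 over all alternatives).

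Of 8 tested genes of the Nrf2 antioxidant response, 1 rose, 1 fell and 6 were not called, with a median of -0.07. Beside these and the hypoxia counts below stand 22.0% of all tested genes called higher and 17.6% lower. Srxn1, which repairs oxidised peroxiredoxins, rose by 0.45 (SE 0.057, limma adjusted p = 0.00131), with a second probe called at 0.28 and a dim one at 0.17 that was not. Nqo1, a quinone reductase near the dim end of the scale, fell by 0.25 (SE 0.052, adjusted p = 0.0112). Of 10 tested hypoxia-induced genes, 0 rose, 4 fell and 6 were not called, with a median of -0.14. After Ndrg1 these were P4ha1, a collagen hydroxylase (-0.53, SE 0.095, adjusted p = 0.00607, with a second probe called at -0.43), Vegfa (-0.44, SE 0.138, 0.0461) and Ankrd37 (-0.30, SE 0.059, 0.00926). A dimmer Vegfa probe was not called, and the Vegfa call was lost without mutant replicate 2 or 3, without control replicate 1 or 2, with all probes tested and with the mean of its probes (0.0134 to 0.141 over all alternatives).

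**Figure D5:**
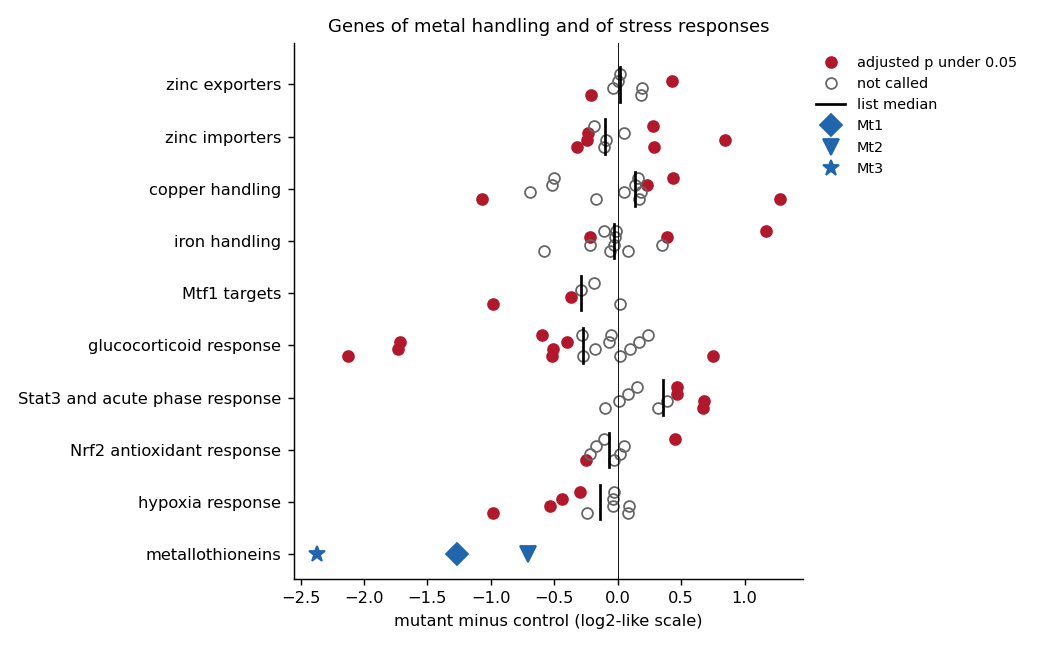
Difference of mutant minus control (log2-like scale) for each tested gene of the metal and stress lists, filled where the limma adjusted p was under 0.05, with the list median as a bar, and Mt1, Mt2 and Mt3 at the bottom. The medians lie between -0.29 (Mtf1 targets) and 0.36 (Stat3 and acute phase), and Mt3 at -2.37 lies below every gene shown.

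Markers of other cell types in the nerve were read beside the members. Among all tested genes 22.0% were called higher and 17.6% lower. Averaged over the 5 fibroblast markers, the signal was 13.46 to 13.68 on mutant arrays and 13.20 to 13.23 on control arrays, and 2 of the 5, Col1a1 and Lum, rose. Dcn was not called by its brightest probe (0.14), while a dimmer probe was called at 0.38. Pdgfra, at 0.27, and Dpt, at -0.36, were not called. Of 4 tested endothelial markers, Cldn5 fell and 3 were not called. The mean signal was, over 5 mural cell markers, 10.34 to 10.41 in mutants and 10.12 to 10.59 in controls and, over 5 perineurial markers, 11.10 to 11.24 in mutants and 11.10 to 11.36 in controls. Among the mural markers Pdgfrb rose by 0.36 and Kcnj8 fell by 0.24. The Kcnj8 call was lost with all probes tested and when any single array but control replicate 3 was left out. Among the perineurial markers Itgb4 rose by 0.48, while Lypd2 (-0.57), Slc2a1 (-0.24), Krt19 (-0.07) and Cldn1 (0.13) were not called. Over 4 macrophage markers the mean signal was 10.02 to 10.16 in mutants and 9.71 to 9.92 in controls, with 1 called higher. The 5 adipocyte markers averaged 9.18 to 9.37 in mutants and 9.33 to 9.62 in controls, and of the 3 that were tested none was called. The 5 skeletal muscle markers stood at 11.90, 11.65 and 9.74 in mutants and 11.98, 13.40 and 11.94 in controls, lowest on mutant replicate 3, the mutant array with the highest Mt1, Mt2 and Mt3. Of 3 Schwann cell markers read, S100b fell, with 8.64, 8.86 and 9.22 in mutants against 9.96, 9.98 and 10.37 in controls (limma adjusted p = 0.00236), and Sox10 and Erbb3 were not called. With the replicate number as a block, 2 adipocyte and 2 skeletal muscle markers were called lower, and 2 macrophage markers and 1 endothelial marker were called higher. The part of these markers in the metallothionein differences was not tested.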

How the data were processed

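Signals of 3 mutant and 3 control arrays (Mouse WG-6 version 2) were analysed, labelled as nerve although the design text speaks of cultured cells. The deposited values resemble log2 signals. Per the labels' design text they were normalized by RMA with limma, and lumi 1.8.3 is named in the submitters' processing notes. Whether the transform is log2 or variance-stabilising, and the background correction, are not given in the sources used here. A variance-stabilised scale would understate log2 changes of dim probes. The sorted columns differ by at most 0.00025. In place of the detection calls of the design text, the 18420 probes with the highest mean were kept. Probes were named from the platform annotation, in which 34885 probes had 1 symbol, 18 several and 10378 none.

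A 2-group model was fitted in R 4.3.3 by limma 3.58.1 (lmFit, then eBayes; two-sided; 4 residual and 2.63 prior degrees of freedom), with Benjamini-Hochberg adjustment over the kept probes. Each gene outside the members was represented by its brightest probe. Same-numbered mutant and control arrays deviated together (r = 0.165, 0.155 and 0.224), so the replicate number was tried as a block. The other alternatives were no filter, the 10000 brightest probes, an intensity trend, a common median, the mean of a gene's probes, and each array left out. The members and gene lists were chosen with earlier results of these data known. Named are all members and Mt4, up to 4 called genes of each list by size of difference, and the 5 nearest profiles. Others (Slc30a1, Nr3c1, the chromosomal neighbours and the cell type markers) are named for their role or position. Some list genes that were not called are named beside the called ones. The fit was tested on simulated data. The number of arrays limits precision.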

Additional observations from a re-analysis of the deposited data

How the results depend on the processing

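The filters, the block, the trend and the common median leave a difference as it is and change only its error. Leaving out 1 array moved the Mt3 difference between -2.52 and -2.24, that of Mt1 between -1.61 and -0.88, that of Mt2 between -0.83 and -0.52 and that of the brightest Mtf1 probe between 0.00 and 0.31. The stricter filter left out the Mt2 and Mtf1 probes. limma called 6596 probes on all arrays, 3664 higher and 2932 lower. With the stricter filter, where fewer probes are tested, 4387 were called and 1937 of them were lower. With the replicate number as a block it was 6287. Leaving out 1 array gave 4598 to 7502 calls, 2557 to 4044 of them higher and 2041 to 3458 lower. Over the metal and stress lists together, 15 genes were higher and 19 lower, against 7 to 17 and 11 to 23 when 1 array was left out, with 7 higher without control replicate 1, 9 higher without control replicate 2, and 9 higher and 11 lower without mutant replicate 2. With all probes tested these counts, still over the same genes, were 10 and 14, with the block 15 and 16. The counts leave out Lcn2 and Pgf, which were called lower with all probes tested. Of 28 named list genes, 15 kept their call in every alternative that tested them and 13 lost it in at least 1. Among the 15, Ankrd37, Nqo1 and Slc39a4 were left out by the stricter filter. Apart from the losses given with the genes, the block changed no other call among the 28. Counts of cell type markers under the block are given with the markers. Counts of single lists, most of them small, were compared with the main count in each alternative. In 74 of these comparisons the count moved by over 1.5 times or to or from 0, and in 358 it did not. Without mutant replicate 1, 3 copper genes were lower; with the mean of each gene's probes, 3 iron genes were lower and 2 zinc exporters higher. With the block, 0 iron genes were lower. The cause was not tested. The mutant signals of Mt2 and Mt3, and all Mt4 signals, are close to the lowest on the arrays, which limits how far a lower level can show.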
